A study of Mus musculus with 108 samples.

Results

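The cortex (CX) and the cerebellum (CB) of the same wild-type (WT) mice were compared at postnatal day 35 (P35). The libraries are the 10 bulk RNA-seq libraries, of 108 in the series, that are labelled as P35 CX or P35 CB of WT mice and that come from the 5 mice for which both sources of genotype agree. The series was made from Cul3+/- mice, which carry a germline frame-shifting insertion in Cul3 made with CRISPR-Cas9, and from WT mice, on a strain background labelled C56Bl/6N. The mice were labelled adult at P35, and each gave 1 CX and 1 CB library of ribosomal RNA-depleted total RNA, so the regions were compared within mice. Mice are named here by the number in their label (11, 15, 17, 26 and 31). WT mouse 23 was left out, because the labels call it WT while the study's table of libraries calls it Cul3+/-. Each library is homogenised tissue, so in any result below fewer cells of a type and less RNA per cell cannot be told apart.

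The cerebral cortex and the cerebellum are built from different neurons. The cortex holds layered glutamatergic projection neurons and several classes of GABAergic interneurons born in the ventral forebrain. The cerebellum holds a vast number of small glutamatergic granule cells, whose parallel fibres drive GABAergic Purkinje cells, the sole output of the cerebellar cortex. Molecular layer, Golgi and unipolar brush cells lie between them, and Bergmann glia are present beside other astrocytes. Transcription factors laid down in the embryo, such as En1 and En2 at the midbrain-hindbrain junction, mark this origin into adult life. Neurons in the regions also assemble receptors and channels from different members of the same gene families.

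The libraries held 28516485 to 44411259 counts, and 17806 genes passed the filter on low counts. Region separated them on the first principal component, which took 86.1% of the variance. The CB library of mouse 17 stood apart from the other 4 CB libraries on the second component (52.5 against −21.7 to 1.02), which took 4.04%. Its mitochondrial genes took 7.86% of counts against 4.51% to 4.9% in the other CB libraries and 4.93% to 6.1% in CX, and mt-Rnr1 alone took 1.24% against 0.197% to 0.315% in the other CB libraries. In the CB libraries of mice 26 and 31, choroid plexus genes were high, as described below. Of 428 listed or largest genes, 17 lost the call without mice 26 and 31, which also leaves fewer pairs to test. Without mouse 17, 21 of the 428 gained it. For the genes with values below, such changes are given beside them.

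Most genes differed between the regions. By edgeR's quasi-likelihood test with mouse as a block, 13141 of 17806 genes (73.8%) passed a false discovery rate (FDR) of 0.1, with 6472 (36.3%) higher in CX and 6669 (37.5%) higher in CB. A second rule that also asked for a difference of at least 2-fold left 2737 genes (15.4%) higher in CX and 2008 (11.3%) higher in CB. Of the genes past the FDR, 713 differed by at least 16-fold, 497 toward CX and 216 toward CB. All 5 libraries of a region lay above all 5 of the other region for 9603 genes (53.9%). Without mouse 17 the count was 13235, and without mice 26 and 31 it was 11187. Leaving out both of the latter also leaves fewer pairs to test. The count was 12214 to 12577 when any single mouse other than 17 was left out. Below, CPM values (counts relative to library size) are scaled by the trimmed mean of M values, log2FC is CX over CB so that negative values are higher in CB, and ± after a log2FC is its standard error. CPM is not divided by gene length and serves only to compare a gene with itself.

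The genes with the largest differences toward CB were the GABA-A receptor subunit Gabra6, the Fgf modulator gene Cnpy1, the homeobox genes Barhl2 and Lhx1, and Sycp1, a synaptonemal complex gene. Gabra6 (chr11:42306437-42321072, minus strand, GRCm38), which in the adult brain is best known from cerebellar granule cells, read 722, 734, 567, 686 and 760.0 CPM in the CB of mice 11, 15, 17, 26 and 31 and 0.0284, 0.0488, 0, 0.071 and 0 CPM in their CX (log2FC −14.40 ± 0.21, adjusted p = 1.06e-09). The CX libraries together held 5 Gabra6 counts. Cbln3, a secreted cerebellin of granule cells, read 1390.3, 1312, 1500.1, 1274 and 1255 CPM in CB against 0.249 to 0.512 in CX (log2FC −11.63 ± 0.13). Pcp2, a Purkinje cell gene, read 220.4 to 257 CPM in CB against 0.0355 to 0.116 in CX (log2FC −11.80 ± 0.13). The largest genes were picked for a large fold among those without overlap between the regions. That none of these ranges overlapped was therefore set by the choice. Each gap was far wider than the spread among mice.

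Several of the CB genes had no or almost no CX counts, so their fitted fold changes depend on the prior count. Barhl2, Lhx1 and Sycp1 had 0 counts in all 5 CX libraries. Set against 3 counts over the group, the level that a count of 0 allows, they were at least 1598-fold, 1504-fold and 1222-fold higher in CB. Cnpy1 had 3 CX counts and a CB to CX ratio of 17683 (95% Poisson interval 6051 to 85751, counting error only). Dao, the D-amino acid oxidase gene, had 3 CX counts as well and a ratio of 3008 (1029 to 14589). Lhx1 was the most uneven of them among mice, at 53.9 CPM in the CB of mouse 17 against 16.7 to 27.3 in the others, while the antisense gene Lhx1os read 20 CPM in that library and 22.4 to 26.5 in the others. Without mouse 17 the Lhx1 log2FC was −12.47 against −12.87 with it. Whether the counting used strand is not given in the sources used here, so reads of Lhx1 and Lhx1os may not be fully separated.

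Toward CX the largest differences included those of Ddn, Vip and Fezf2. Ddn encodes dendrin, a postsynaptic protein of forebrain dendrites, and read 716, 862, 882, 741 and 874 CPM in CX against 0.261, 0.228, 0.13, 0.15 and 0.055 in CB (log2FC 12.24 ± 0.19, adjusted p = 1.53e-09). Fezf2, a zinc finger factor of deep layer projection neurons, read 20.7 to 28.1 CPM in CX and had 2 counts in the CB libraries together, a ratio of 2313 (639.8 to 19102). Nrgn (chr9:37544492-37552904, minus strand, GRCm38) encodes neurogranin, a postsynaptic calmodulin buffer. It read 312, 419, 421, 405 and 352 CPM in CX and 0.391 to 0.875 CPM in CB (log2FC 9.50 ± 0.13). Others among the 15 largest were Kcnv1, Zfp831, Lhx2, Crym, Dlx6os1, Egr2, Mas1, Egr3 and Chrm1, with log2FC from 8.47 to 10.75.

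**Figure D1:**
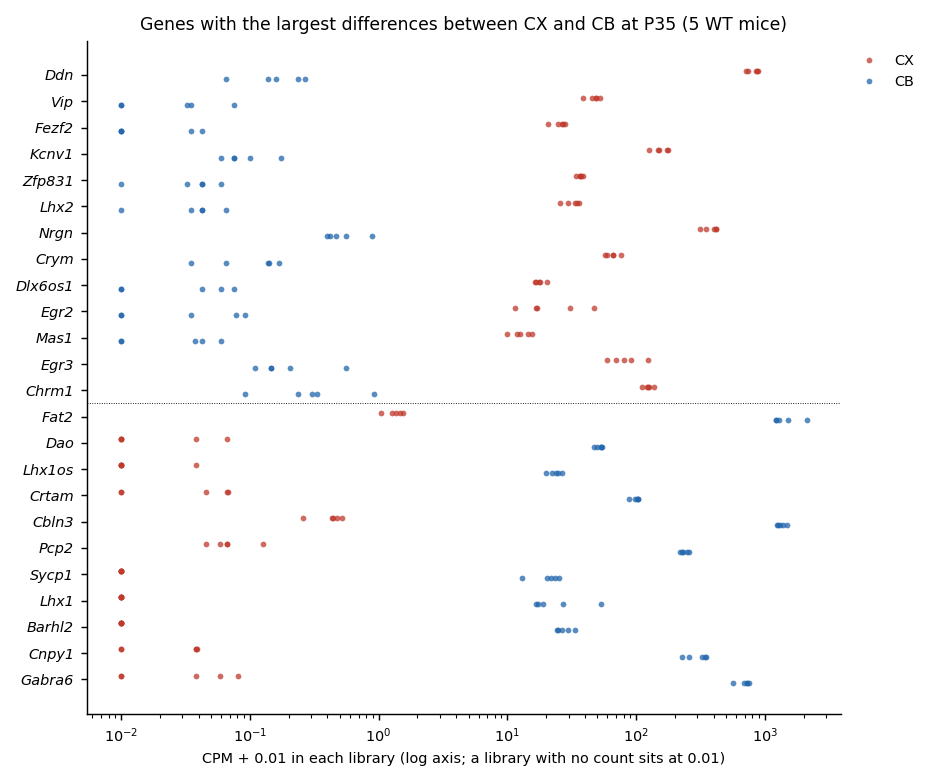
CPM (log axis, plus a small constant) in each of the 5 CX and 5 CB libraries for genes among the 15 with the largest fitted difference toward CX (top) and toward CB (bottom), 1 point a library. Genes were picked among those whose regions do not overlap, and libraries without a count sit at the left end.

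The 250 bases upstream of the RefSeq transcription start (GRCm38.p6) are shown for 4 genes that carry the comparison: the granule cell gene Gabra6, the Purkinje cell gene Pcp2, the cortical gene Nrgn and the immediate early gene Npas4. Sequences are 5′ to 3′ on the gene's strand. The gene positions given in the text are those of GENCODE M21, whose starts can differ from RefSeq. The Npas4 window lies within the GENCODE span of its gene, and the Nrgn window overlaps that of its gene. Capitals mark matches on either strand to AGGTCA in Pcp2 (the core element of Ror and other nuclear receptors) and to TGACGT in Npas4 (the core of the cAMP response element), which are 2 of the 6 motifs searched. Another of the 6, CAGATG, is left in lower case and has 1 match each in the Pcp2 and Nrgn windows. The Gabra6 window held no match to any of the 6.
Gabra6, chr11:42321073-42321322, minus strand: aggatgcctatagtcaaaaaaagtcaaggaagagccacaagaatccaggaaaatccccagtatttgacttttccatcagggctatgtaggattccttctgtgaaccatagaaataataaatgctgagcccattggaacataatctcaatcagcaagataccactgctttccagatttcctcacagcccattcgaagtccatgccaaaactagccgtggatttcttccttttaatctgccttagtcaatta
Pcp2, chr8:3625548-3625797, minus strand: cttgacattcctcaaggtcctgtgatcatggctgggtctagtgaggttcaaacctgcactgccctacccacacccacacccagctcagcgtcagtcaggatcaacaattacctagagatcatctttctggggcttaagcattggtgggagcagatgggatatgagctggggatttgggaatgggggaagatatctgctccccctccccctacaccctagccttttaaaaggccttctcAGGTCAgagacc
Nrgn, chr9:37552746-37552995, minus strand: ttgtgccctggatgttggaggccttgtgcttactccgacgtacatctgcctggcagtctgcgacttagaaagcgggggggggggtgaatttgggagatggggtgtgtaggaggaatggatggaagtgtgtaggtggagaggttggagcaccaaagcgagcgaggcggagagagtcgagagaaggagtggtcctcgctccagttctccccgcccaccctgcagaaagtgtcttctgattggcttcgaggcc
Npas4, chr19:4989972-4990221, minus strand: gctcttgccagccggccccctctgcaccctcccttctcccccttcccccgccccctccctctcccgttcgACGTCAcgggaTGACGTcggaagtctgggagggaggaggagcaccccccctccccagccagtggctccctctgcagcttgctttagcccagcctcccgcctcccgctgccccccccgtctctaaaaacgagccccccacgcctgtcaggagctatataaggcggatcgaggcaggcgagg

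Upstream windows of this length were searched on both strands for 6 motifs, in 3 lists and in all 32851 RefSeq windows. TGACGT was present in 8 of 13 windows of the immediate early genes (61.5%, from 6 of the 9 genes matched), in 6.47% of all windows, and in 0 of 18 windows of the granule cell list and 0 of 18 of the Purkinje cell list. AGGTCA was present in 7 of 18 Purkinje cell windows (38.9%, from 5 of the 10 genes matched), in 4 of 18 granule cell windows (22.2%), in 1 of 13 immediate early windows (7.69%) and in 14% of all windows. The longer palindrome TGACGTCA, which contains TGACGT, was present in 2 of 13 immediate early windows (15.4%) and in 1.55% of all windows. CAGATG, an E-box of proneural factors, was present in 4 of 18 granule cell windows (22.2%), in 2 of 18 Purkinje cell windows (11.1%), in 0 of 13 immediate early windows and in 14.4% of all windows. GCGTGGGCG, the Egr site (0.536% of all windows), matched no window of the 3 lists. Nor did the 1 exact sequence searched for the CArG box of serum response factor, present in 20 of 32851 windows (0.0609%). Other forms of that box were not searched, and windows were found for 9 of the 13 immediate early genes. With sequences this rare, no match among 13 or 18 windows cannot show that a list lacks such sites. Genes with several start sites gave several overlapping windows, and a match of letters is not a binding site.

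Gene lists for regions, cell types and molecular families held 430 genes, of which 414 were tested and 16 were too low. Of these 414, 220 were higher in CX, 139 were higher in CB and 55 did not pass, so 86.7% passed against 73.8% of all genes tested. The lists hold textbook markers and were chosen with earlier results of these data known, so the higher share may follow from the choice. Over all genes tested, 36.3% were higher in CX and 37.5% in CB, and the median log2FC was −0.02. The counts and medians of the lists below can be read beside these.

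Transcription factors that pattern the brain kept a regional divide at P35. Of 16 forebrain factors, 15 were higher in CX, with a median log2FC of 5.18. Tbr1, a factor of early-born projection neurons, read 75.7 ± 5.19 CPM (SD, n = 5) in CX and 0.326 ± 0.0732 in CB (log2FC 7.85). The exception was Neurod2, a factor shared by cortical projection neurons and granule cells, which was higher in CB at 99.5 ± 4.08 CPM against 55.2 ± 6.15 (log2FC −0.86, adjusted p = 1.05e-05). All 18 cerebellar factors were higher in CB, with a median of −4.95. En2 read 115 to 137 CPM in CB and 0.112 to 0.52 in CX (log2FC −8.84), and Zic1, of granule cells, read 873 ± 79.3 and 9.98 ± 0.68 CPM (log2FC −6.45). The spread among mice was small beside these differences. Of the hindbrain Hox genes, which mark the brain stem below the cerebellum, none passed the filter: each had 1 to 10 counts in all 10 libraries together.

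Markers of cortical neurons were higher in CX in nearly every case. All 9 upper layer and layer 4 markers were higher in CX, with a median log2FC of 3.21, from Lamp5 (106 ± 11 against 0.308 ± 0.162 CPM, log2FC 8.46) to Cdh24 (log2FC 0.96). Cux2 and Rorb, the usual markers of these layers, differed by far less, and both were measured in CB too. Cux2 read 110.1 to 144 CPM in CX and 35.2 to 61 in CB (log2FC 1.52 ± 0.08), and Rorb read 62.3 to 79.4 in CX and 14.6 to 28.5 in CB (log2FC 1.92 ± 0.16). Of 12 deep layer markers, 11 were higher in CX, with a median of 1.77. Bcl11b, the factor of subcerebral projection neurons, read 54.6 to 67.7 CPM in CX and 0.907 to 1.27 in CB (log2FC 5.75). Bcl6 was the exception, at 18.5 ± 2.31 CPM in CX and 38 ± 5.69 in CB (log2FC −1.04).

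Of 14 markers of forebrain interneurons, 13 were higher in CX, with a median log2FC of 6.78, or 6.61 with a member that had no CB counts at its bound. The neuropeptide gene Vip read 38.4 to 52.9 CPM in CX and had 4 counts in the CB libraries together. Sst, the somatostatin gene, read 85.1 to 107 CPM in CX and 0.701 to 1.32 in CB (log2FC 6.67 ± 0.12). Npy was the least regional of the peptide genes, at 43.6 ± 4.17 and 7.92 ± 1.1413 CPM (log2FC 2.47). Adarb2, an RNA editing family gene of caudally derived interneurons, was slightly higher in CB, at 23.8 ± 1.1 against 20.9 ± 1.16 CPM (log2FC −0.19, adjusted p = 0.028), and did not pass without mouse 15 (−0.15).

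All 15 granule cell markers and all 18 Purkinje cell markers were higher in CB, with median log2FC of −5.19 and −3.31. Beside Gabra6 and Cbln3, the granule cell list held Fat2, a giant cadherin of parallel fibres, at 1290.1, 1224, 2125, 1523 and 1225 CPM in CB and 1.03 to 1.54 in CX (log2FC −10.08 ± 0.16). Il16 read 263 ± 8.19 CPM in CB and 2.54 ± 0.175 in CX (log2FC −6.70). At the other end, Gabrd (−1.67), Tiam1 (−1.62) and Etv1 (−1.62) differed least, and Gabrd still read 55 to 67.3 CPM in CX. In the Purkinje cell list, Car8, a carbonic anhydrase-related binder of the IP3 receptor, read 1739 ± 218 CPM in CB and 17.7 ± 2.02 in CX (log2FC −6.61). Calb1 read 768 to 1121 CPM in CB against 117 to 135 in CX (log2FC −2.97), and Pvalb, which fast-spiking cortical interneurons share, 419 to 619.5 against 34.8 to 46.8 (log2FC −3.65). Of the Purkinje cell genes, 1 lost its call without mouse 17 or without mouse 26.

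Markers of the smaller neuron classes of the cerebellum were less uniform. Of 9 tested, 6 were higher in CB, 2 were higher in CX and 1 did not pass, with a median log2FC of −3.42. Slc6a5, the glycine transporter of Golgi cells, read 14.5 to 35.3 CPM in CB and 0.0281 to 0.142 in CX (log2FC −8.14), and Eomes, of unipolar brush cells, read 16.9 ± 5.34 and 0.219 ± 0.145 CPM (log2FC −6.16). Kit, of molecular layer interneurons, read 158 to 229 CPM in CB and 37.4 to 41.7 in CX (log2FC −2.24). Nxph1 (log2FC 1.28) and Sorcs3 (1.20) were higher in CX, where forebrain interneurons are known to express them too. Bergmann glia markers were all 7 higher in CB, with a median of −2.17, led by A2m (98 ± 10.2 against 1.66 ± 0.569 CPM, log2FC −5.88) and Gdf10 (99.3 to 113 against 2.85 to 3.37 CPM, log2FC −5.05).

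**Figure D2:**
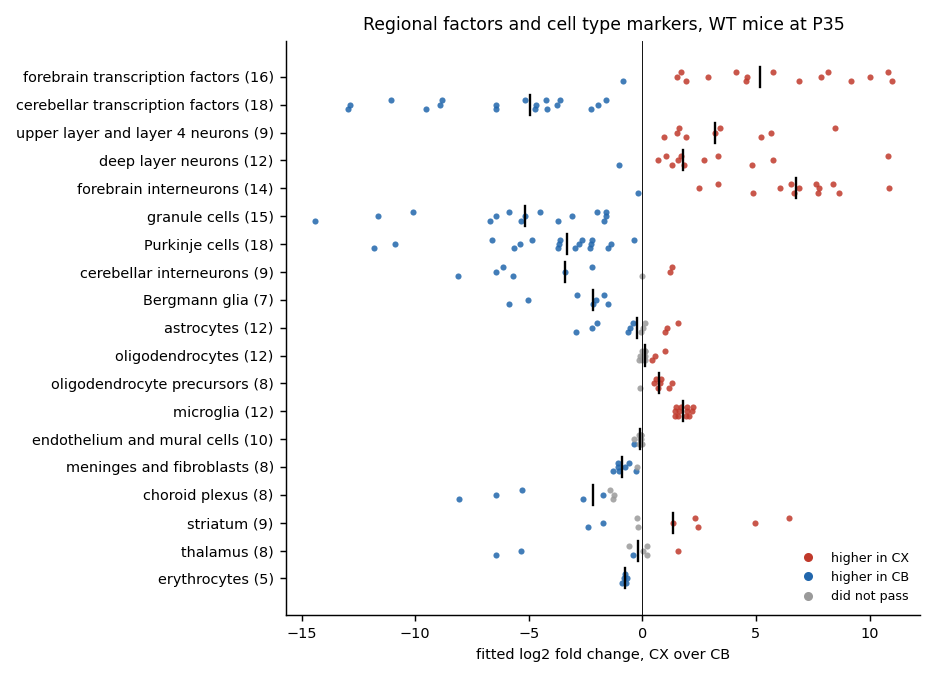
The log2FC (CX over CB) of each tested member of the region and cell type lists at P35, 1 point a gene coloured by its call, with the list median as a bar and the number tested in brackets. Forebrain and cortical neuron lists lie mostly above 0 and cerebellar neuron and Bergmann glia lists below it, while oligodendrocyte and endothelial genes gather near 0.

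Glial and vascular markers differed by type. All 12 microglia markers were higher in CX, with a median log2FC of 1.80 and no overlap between regions for any of them. Over all genes tested, 36.3% were higher in CX and 53.9% had no overlap between regions. P2ry12, the ADP receptor of resting microglia, read 42.4, 45.4, 45.8, 36 and 41.2 CPM in CX and 9.32, 8.3, 9.89, 8.43 and 9.4 in CB, 4.65-fold higher (log2FC 2.22 ± 0.07). Csf1r, the receptor that microglia need to survive, read 72.8 to 88.7 and 22 to 34.4 CPM (log2FC 1.55 ± 0.09). Oligodendrocyte precursor markers were higher in CX for 7 of 8, with a median of 0.71. Their receptor gene Pdgfra read 62.6 to 81.4 CPM in CX and 26 to 34.1 in CB (log2FC 1.32).

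Mature oligodendrocyte markers were near balance, with 9 of 12 not passing, 3 higher in CX and a median log2FC of 0.10. Mbp, myelin basic protein, read 878, 1006, 1023, 866 and 1040.1 CPM in CX and 1181, 544, 1674, 1063 and 1249 in CB (log2FC −0.17 ± 0.20, adjusted p = 0.478). The CB library of mouse 15 was the lowest of the 10 for Mbp, and that of mouse 17 the highest. Mobp, another myelin gene, was likewise lowest in the CB of mouse 15 (271 CPM against 453 to 693 elsewhere). Without mouse 15, Mbp was called higher in CB (log2FC −0.42), as were Cnp, Ugt8a, Aspa and Ermn, and the list median was −0.12. Without mice 26 and 31 it was 0.26.

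Astrocyte markers were split, with 6 of 12 higher in CB, 3 higher in CX and 3 not passing (median log2FC −0.24). Aqp4, the water channel of perivascular endfeet, read 468 to 548 CPM in CB and 115 to 141 in CX (log2FC −1.98), and S100b read 343 ± 17.3 and 73.8 ± 4.35 CPM (log2FC −2.22). Slc1a2, the main glutamate transporter, was higher in CX at 2809.6 ± 276 against 999 ± 349 CPM (log2FC 1.55), while the Bergmann glia transporter Slc1a3 was higher in CB at 1436 ± 75.3 against 502 ± 40.2 CPM (log2FC −1.52). Gfap read 110 ± 8.64 CPM in CX and 104 ± 19.8 in CB, and Aldh1l1 67.3 ± 2.64 and 65.3 ± 3.12. Neither passed the test, although Gfap did so without mouse 17 (log2FC 0.16). Of 10 endothelial and mural cell markers, 9 did not pass and Kcnj8 was higher in CB (log2FC −0.39, or −0.20 and not passing without mice 26 and 31), with a list median of −0.09. That median was −0.18 without mouse 17 and −0.02 without mice 26 and 31. Meningeal and fibroblast markers were higher in CB for 7 of 8 (median −0.91), led by Igf2 (47.4 ± 10.6 against 19.2 ± 2.69 CPM, log2FC −1.29). The 5 erythrocyte genes were higher in CB (median −0.78), at 146 to 276 CPM for Hbb-bs in CB and 97.3 to 127 in CX. The paired globin genes are near copies of each other, so counts may be split between them.

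Neighbouring tissue was measured with its own markers. Of 8 choroid plexus genes, 5 were higher in CB and 3 did not pass, and the CB libraries disagreed among themselves. Their median log2FC was −2.19, and it was −1.03 without mouse 26, −1.19 without mouse 31 and −0.14 without both. Ttr, transthyretin of the choroid plexus epithelium, read 2.38, 6.34, 0.421, 2616 and 1191 CPM in CB of mice 11, 15, 17, 26 and 31, and 0.37 to 2.88 in CX. The mean log2 CPM of the list was 0.0094 to 0.662 in the CB of mice 11, 15 and 17 against 4.34 and 5.41 in mice 31 and 26, and −0.765 to −0.329 in CX. Ttr did not pass without mouse 26 (log2FC −3.80), without mouse 31 (−3.64) or without both (−1.04). Without both, Kl turned to CX (0.51, adjusted p = 0.0849) and Sostdc1 turned to CX (3.14, adjusted p = 0.011). Otx2, also a factor of granule cell precursors, had a far smaller spread in CB, at 10.6 ± 3.54 CPM against 0.0339 ± 0.022 in CX (log2FC −8.09). Of 9 striatal markers, 5 were higher in CX, 2 were higher in CB and 2 did not pass (median 1.34). Drd1, which deep cortical neurons also express, read 10.2 to 14.6 CPM in CX, while Drd2 read 0.604 to 0.955 and Adora2a 1.27 ± 0.174. Of 8 thalamic markers, 1 was higher in CX, 3 were higher in CB and 4 did not pass (median −0.18). Their part in the results was not tested.

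**Figure D3:**
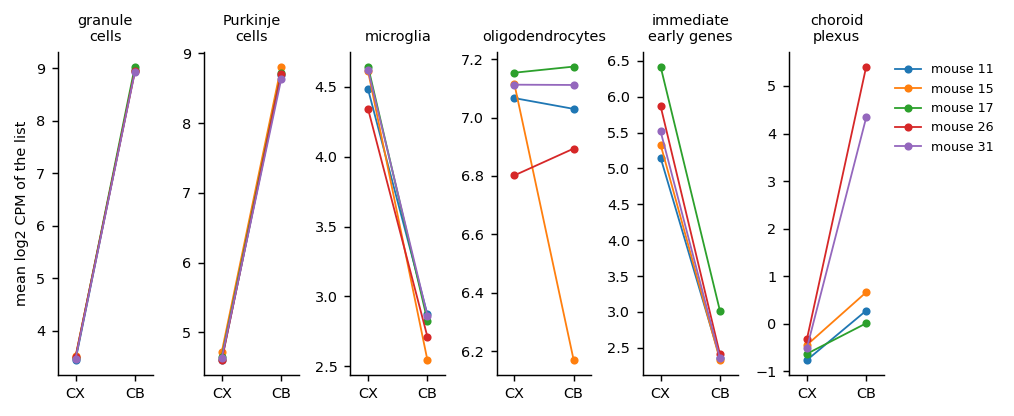
Mean log2 CPM of 6 gene lists in each of the 10 libraries, with the CX and CB of a mouse joined by a line and each panel on its own scale. Choroid plexus genes reach 5.41 and 4.34 in the CB of mice 26 and 31 and stay at or below 0.662 in the other 8 libraries.

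Ionotropic glutamate receptor genes differed in make-up between the regions. Of 11 AMPA and NMDA receptor genes, 6 were higher in CX, 4 were higher in CB and 1 did not pass (median log2FC 0.56). Grin2b, the NMDA receptor subunit with slow kinetics, read 846, 859, 970.5, 799 and 755 CPM in CX and 14.4, 17.3, 43.2, 31.7 and 15.7 in CB, 37.8-fold higher in CX (log2FC 5.24 ± 0.24). Grin2c, the subunit of mature granule cells, read 29.4 to 34.5 CPM in CX and 219.9 to 303 in CB, 8.46-fold higher in CB (log2FC −3.08 ± 0.08). Grin1, the obligatory subunit, differed little, with overlapping ranges of 235 to 297 CPM in CX and 158 to 249 in CB (log2FC 0.56). Levels per length were taken as RPKM, the CPM per kilobase of a gene's exons. By RPKM, Grin2b made up 13.1% of the summed level of the list in CX and 0.326% in CB, and Grin2c 2.38% and 17.45%. Gria4, an AMPA receptor subunit, made up 8.33% in CX and 31.5% in CB, at 129 to 146 and 521 to 662 CPM (log2FC −2.13). Of 7 kainate and delta receptor genes, 4 were higher in CX and 3 in CB (median 0.68).

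Metabotropic glutamate receptor genes all differed, with 5 of 7 higher in CX, 2 in CB and a median log2FC of 1.73. Grm5, of group I, read 311 to 344 CPM in CX and 9.24 to 14.7 in CB (log2FC 4.74 ± 0.12). Grm4, a presynaptic receptor of parallel fibres, read 18.8 to 22.3 CPM in CX and 403 to 677 in CB (log2FC −4.51). By RPKM, Grm4 took 2.94% of the list's summed level in CX and 53.4% in CB, and Grm5 took 27.6% and 0.816%. Vesicular glutamate transporter genes were all 3 higher in CX (median 1.58). Slc17a7 was 95.1% of their summed RPKM in CX and 96.5% in CB, and read 835 to 1057 and 391 to 541 CPM (log2FC 1.16).

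GABA-A receptor genes ranged from Gabra5, far higher in CX, to Gabra6, far higher in CB. Of 14, 9 were higher in CX, 4 in CB and 1 did not pass (median log2FC 0.89). Gabra5, a subunit of extrasynaptic receptors in the forebrain, read 47.7 to 56.8 CPM in CX and 0.342 to 0.521 in CB, 120-fold higher in CX (log2FC 6.91 ± 0.10). By RPKM, Gabra6 took 0.0036% of the list's summed level in CX and 47.5% in CB, where it ranked first. Of 8 genes of GABA synthesis and transport, 6 were higher in CB and 2 in CX (median −0.64). Gad1 read 231 to 309 CPM in CX and 442 to 500.0 in CB (log2FC −0.82), while Gad2 overlapped at 101 to 121 and 108 to 152 (log2FC −0.19, adjusted p = 0.0905). Gad2 did not pass without mouse 17 (log2FC −0.09), without mouse 26 (−0.18), without mouse 31 (−0.22) or without both of these (−0.21).

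Cerebellins, which bridge presynaptic neurexins to delta receptors, were split by member. Cbln1 read 666 ± 64.3 CPM in CB and 11.6 ± 1.82 in CX (log2FC −5.85), while Cbln2 read 0.192 ± 0.171 and 59.7 ± 11.5 (log2FC 8.37) and Cbln4 was higher in CX as well (4.72). Of the 14 cerebellins and partners, 8 were higher in CX, 4 in CB and 2 did not pass (median 0.49). Calcium binding genes were 8 of 12 higher in CX and 4 in CB (median 0.85). Calb2, calretinin, read 345 to 438 CPM in CB and 8.42 to 10.5 in CX (log2FC −5.34), and the neuronal calcium sensor Hpcal4 read 993 ± 74 CPM in CX and 32.8 ± 5.66 in CB (log2FC 4.93). By RPKM, Pvalb took 5.17% of this list's level in CX and 41.0% in CB. Of 4 calmodulin-binding IQ proteins, 2 were higher in CX, 1 in CB and 1 did not pass (median 0.24), and Nrgn took 53.2% of their RPKM in CX and 0.0874% in CB, where Pcp4 took 78.1%.

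**Figure D4:**
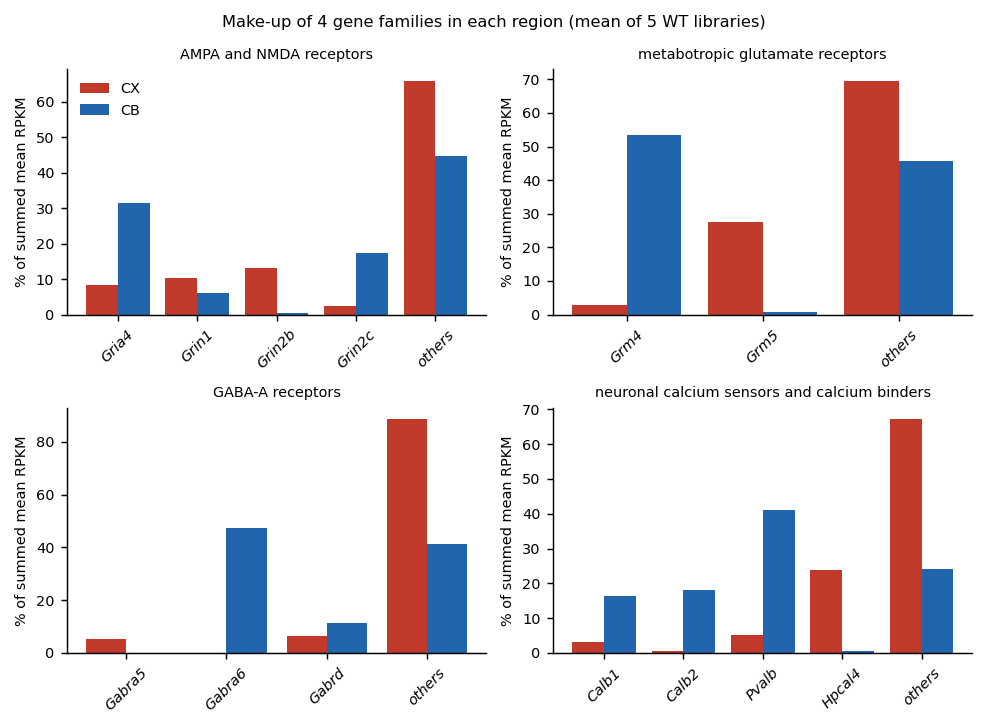
Share of single genes and of all other members summed (bars, %) in the summed mean RPKM of 4 gene families in CX and in CB of 5 WT mice at P35. Gabra6 takes 0.0036% of the GABA-A receptor genes in CX and 47.5% in CB, Grm4 takes 2.94% and 53.4% of the metabotropic receptors, and Pvalb takes 5.17% and 41.0% of the calcium binders.

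Kinase and calcium store genes were split as well. Of 11 calmodulin kinase genes, 7 were higher in CX, 2 in CB and 2 did not pass (median log2FC 1.03). Camk2a read 668 to 879 CPM in CX and 20.1, 23.7, 62.4, 33.2 and 20.3 in CB (log2FC 4.74 ± 0.24), Camk2b did not pass at 588 ± 38.2 and 539 ± 54.2 CPM (it did without mouse 17, at 0.17), and Camk4, a nuclear kinase of granule cells, read 377 to 499 and 1102 to 1459.9 (log2FC −1.52). The pseudokinase gene Camkv read 372 ± 24.4 CPM in CX and 3.36 ± 0.444 in CB (log2FC 6.80). Of 19 phosphoinositide and calcium store genes, 10 were higher in CX and 9 in CB (median 0.18). Members of the Purkinje cell calcium release cascade were among the latter: Plcb4 read 349 to 397 CPM in CB and 72.5 to 95.8 in CX (log2FC −2.15), and Itpr1 3948 to 5076 and 845 to 1104 (log2FC −2.26). Plcb1 was higher in CX at 428 ± 45.3 against 119 ± 11.9 CPM (log2FC 1.84). Of 14 cyclase and phosphodiesterase genes, 9 were higher in CX, 4 in CB and 1 did not pass (median 0.64). Pde1a, a calmodulin-dependent phosphodiesterase, read 323 ± 15.4 and 3.59 ± 0.655 CPM (log2FC 6.50), while its paralog Pde1c read 7.97 ± 0.494 and 144 ± 20.8 (log2FC −4.17).

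Ion channel families held both regional and shared members. Of 8 sodium channel genes, 3 were higher in CX, 3 in CB and 2 did not pass (median log2FC −0.03). Scn2a and Scn1a were close between the regions. Scn2a read 653 to 731 CPM in CX and 643 to 718 in CB (log2FC 0.05 ± 0.06). Scn1a read 240.4 to 303 and 279.8 to 306 (log2FC −0.12 ± 0.07, or −0.16 and passing without mouse 11). Scn3a, by contrast, read 72.8 ± 2.78 in CX and 2.21 ± 0.464 in CB (log2FC 5.05). Of 11 calcium channel genes, 5 were higher in CX, 4 in CB and 2 did not pass (median 0.21, or 0.12 without mouse 15 and 0.35 without mouse 17). T-type subunits went opposite ways, with Cacna1g at 63.5 to 79.1 CPM in CX and 296 to 476 in CB (log2FC −2.31) and Cacna1h at 37 to 48 and 2.42 to 4.9 (log2FC 3.76). Of 21 potassium channel genes, 12 were higher in CX, 7 in CB and 2 did not pass (median 0.31). Kcnv1, a modifier of Kcnb channels, read 125 to 177 CPM in CX and 0.0501 to 0.165 in CB (log2FC 10.75), and Kcnq5 read 146 ± 9.58 and 1.65 ± 0.144 (log2FC 6.47).

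Of 24 synaptic vesicle genes, 16 were higher in CX, 3 in CB and 5 did not pass (median log2FC 0.56, or 0.74 without mouse 17). Stx1a, a syntaxin of the release machinery, read 232, 269, 273, 260.1 and 259 CPM in CX and 2.28, 2.01, 2.37, 2.03 and 2.09 in CB, 120-fold higher in CX (log2FC 6.91 ± 0.08). Snap25, its partner, read 2253 ± 168 and 2274 ± 153 CPM and did not pass. Syt2, the fast calcium sensor of inhibitory terminals, was higher in CB at 525 ± 82.1 against 61.9 ± 7.55 CPM (log2FC −3.08).

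Receptors for monoamines, acetylcholine and peptides were one-sided, with 22 of 23 higher in CX and a median log2FC of 3.89. Chrm1, the main muscarinic receptor of cortical pyramidal cells, read 112 to 137 CPM in CX and 0.0824 to 0.908 in CB (log2FC 8.47 ± 0.27). Htr2a, the serotonin receptor of layer 5 neurons, read 44 to 69.3 and 1.45 to 1.92 CPM (log2FC 5.06). Cnr1, the cannabinoid receptor, was the exception at 242 to 272 CPM in CX and 603 to 737 in CB (log2FC −1.40 ± 0.05), and made up 19.9% of the list's summed RPKM in CX and 84.2% in CB. Of 9 neurotrophins and receptors, 5 were higher in CX, 3 in CB and 1 did not pass (median 0.30). Bdnf read 29.4 to 70.1 CPM in CX and 13.6 to 18.1 in CB (log2FC 1.34), Ntf3 was higher in CB (7.98 ± 0.949 against 1.15 ± 0.331 CPM, log2FC −2.80), and Ntrk3 did not pass (log2FC −0.16).

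Immediate early genes, which neurons transcribe within minutes of activity, were higher in CX for 11 of 13, with a median log2FC of 3.36, and 2 did not pass. Arc, a postsynaptic capsid-like protein, read 253, 280.0, 534, 517 and 309 CPM in CX and 23.2, 19.6, 20.4, 21.4 and 20.5 in CB (log2FC 4.10 ± 0.20). Npas4 (chr19:4984355-4990316, minus strand, GRCm38) read 49, 40.5, 64, 35.7 and 45.6 CPM in CX and 3.22, 3.17, 7.16, 3.65 and 3.24 in CB (log2FC 3.56 ± 0.13). Its window upstream of the RefSeq start is shown above with its TGACGT matches. Mouse 17 was the highest for Npas4 in both regions. Fos read 56.6, 60.2, 122, 75.6 and 61.8 CPM in CX and 26.8, 23.4, 64.7, 38.7 and 28.7 in CB, so the regions overlapped while every mouse was higher in CX (log2FC 1.08 ± 0.07). Dusp1 (log2FC −0.12) and Ier2 (−0.10) did not pass, but both were called higher in CB without mouse 17 (−0.28 and −0.31). The mean log2 CPM over the list was 5.15 to 6.42 in CX and 2.33 to 3.02 in CB.

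Cul3 itself, the ubiquitin ligase scaffold that gave the study its mutant, read 179, 184, 151, 178 and 160.3 CPM in CX and 182, 189.8, 154, 198 and 187 in CB of the WT mice (log2FC −0.10 ± 0.05, adjusted p = 0.146). The values were lowest in mouse 17 in both regions, and every mouse read slightly higher in CB. Without mouse 17 the log2FC was −0.11 and passed. By the same test Cul3 was higher in CB in WT mice at P7 (log2FC −0.14, adjusted p = 0.0148). It was also higher in CB in Cul3+/- mice at P35 (log2FC −0.30, adjusted p = 2.55e-05).

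The regional differences were measured again in 5 Cul3+/- mice of the same age, whose libraries were not used above. Over both genotypes scaled together, Cul3 read 86.6 to 92.3 CPM in the CX of Cul3+/- mice against 151 to 184 CPM in WT, and 105 to 112 CPM in their CB against 152 to 198 CPM. There, 13959 of 17655 genes tested (79.1%) passed the FDR of 0.1. Of the 13141 genes called in WT mice, 12936 were tested in Cul3+/- mice, 12508 of them (96.7%) had the same direction and 11530 (89.1%) were called in that direction. All 30 genes with the largest differences were called in the same direction. Gabra6 had a log2FC of −15.00 in Cul3+/- mice against −14.40 in WT, and Nrgn 9.53 against 9.50. A test of whether the CX to CB difference itself depended on genotype gave 0 of 18641 genes (0%) by edgeR, with 3118 genes at an unadjusted p under 0.05, and 88 genes by DESeq2. The list medians had the same sign in both genotypes for 36 of 38 lists, the exceptions being oligodendrocytes (0.10 in WT and −0.41 in Cul3+/- mice) and sodium channels (−0.03 and 0.03).

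Whether the divide was already in place at P7 was tested against 6 WT mice of that age. The CX to CB difference itself differed between P35 and P7 for 12567 of 19259 genes (65.3%), 6848 toward CX and 5719 toward CB with age. Of 17056 genes tested at both ages, 10603 were called at both, 8368 in the same direction and 2235 in opposite directions, of which 1080 passed from CX to CB and 1155 from CB to CX. Levels in this section come from a scaling of all 22 libraries together, so P35 values differ slightly from those above. Regional transcription factors had similar medians at P7 (5.41 for the forebrain list and −5.51 for the cerebellar list) and at P35 (5.18 and −4.95), but single members moved both ways. Of 16 forebrain factors, 7 moved toward CX and 3 toward CB with age, and of 18 cerebellar factors 6 moved each way. Of the 15 largest genes in each direction, 29 of 30 were tested at P7, and all 29 were called in the same direction there.

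Mature cerebellar neuron genes widened the divide. The granule cell list had a median log2FC of −2.66 at P7 and −5.19 at P35, and the Purkinje cell list −2.05 and −3.31. Cbln3 read 40.3 ± 10.3 CPM (SD, n = 6) in P7 CB and 1438 ± 109 (n = 5) in P35 CB, with 0.963 and 0.446 in CX, so its log2FC moved by −6.26 ± 0.19. Calb2 was level at P7, with 31.6 ± 11.6 CPM in CX and 28.4 ± 7.48 in CB, and stood at 10.3 and 417 at P35 (change −5.44). Pvalb went the other way, since CX read 0.222 ± 0.13 CPM at P7 and 45.2 ± 6.14 at P35 while CB read 56.4 and 566 (change 4.33). Among channel and signalling genes, 9 of 11 calmodulin kinase genes moved toward CB with age and 2 toward CX. Of 11 calcium channel genes, 8 moved toward CB and 1 toward CX, while 21 potassium channel genes split into 9 toward each. Of all 19259 genes tested for such a change, 5719 moved toward CB and 6848 toward CX. Scn2a read 680.5 ± 46.6 CPM in CX and 81.3 ± 11.1 in CB at P7 and 749 and 720.5 at P35, and Adcy1, the calcium-stimulated cyclase, read 2033 and 557 at P7 and 1526 and 3298 at P35.

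Some genes measured in CB at P7 were far lower there at P35. Kcnq5 read 119 ± 12.2 CPM in CX and 49.3 ± 2.39 in CB at P7, and 156 and 1.76 at P35 (change 5.21 ± 0.08). Sstr2, a somatostatin receptor, was higher in CB at P7 at 69 ± 7.4 against 32.1 ± 4.31 CPM and higher in CX at P35 at 25.5 against 0.691 (change 6.29 ± 0.17). Nhlh1, a factor of newborn granule cells, read 35.9 ± 3.71 CPM in P7 CB and 0.0418 in P35 CB (change 10.12), with 0.141 and 0.193 CPM in CX.

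Glial genes shifted with age in directions that differed by type. All 12 oligodendrocyte genes shifted toward CX with age, from a median log2FC of −2.50 at P7 to 0.10 at P35. Mobp read 85.5 ± 50.9 CPM in CB and 1.17 ± 0.793 in CX at P7, and 548 ± 169 and 572 ± 56.1 at P35. All 12 microglia genes shifted toward CX as well, from a median of 0.10 to 1.80. Of all 19259 genes tested for a change with age, 6848 moved toward CX and 5719 toward CB. Csf1r read 40.8 ± 4.99 CPM in CX and 36.8 ± 2.84 in CB at P7, and 87.4 ± 6.88 and 30.0 ± 4.57 at P35. The complement gene C1qb was higher in CB at P7 (18.1 ± 1.3 against 11.4 ± 1.09 CPM) and higher in CX at P35 (25.2 ± 2.46 against 8.98 ± 0.916). Other glial lists were less one-sided or went the other way. Of 7 Bergmann glia genes, 5 moved toward CB and 2 toward CX. Of 12 astrocyte genes, 5 moved toward CX and 3 toward CB. Of 8 oligodendrocyte precursor genes, 6 moved toward CX and 0 toward CB. Of the 5 erythrocyte genes, 0 passed the test of a change with age.

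**Figure D5:**
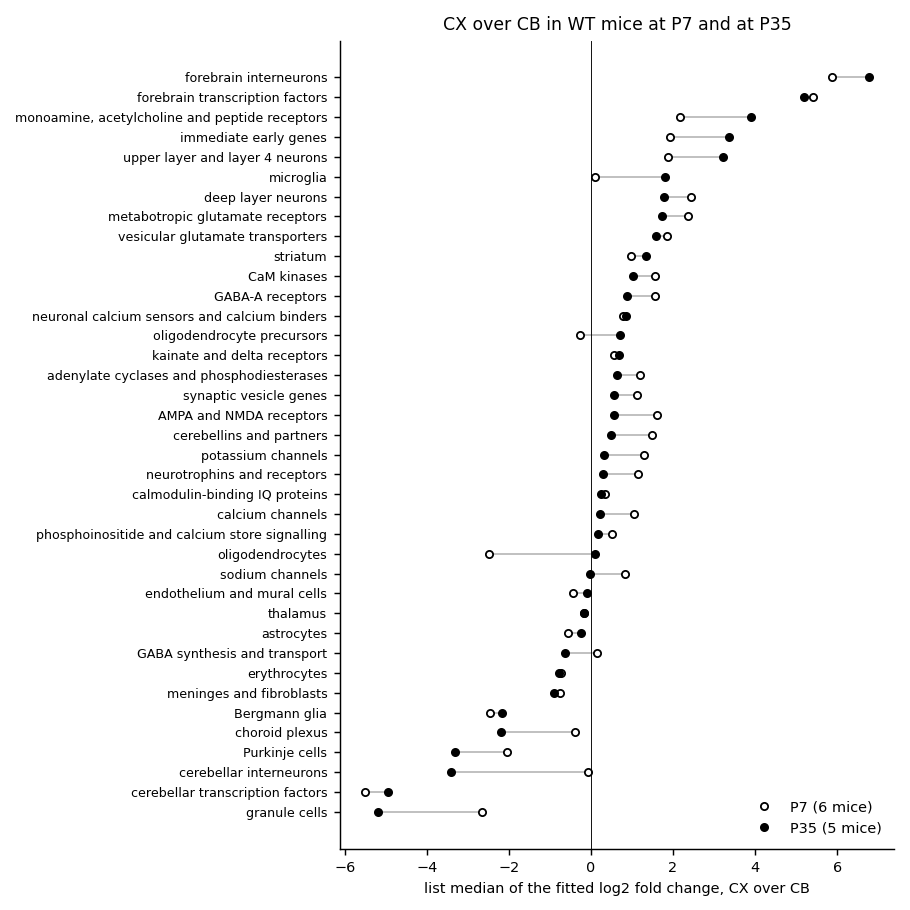
List medians of the log2FC (CX over CB) in WT mice at P7 (6 mice) and at P35 (5 mice). Oligodendrocyte genes go from −2.50 to 0.10 and microglia genes from 0.10 to 1.80, while granule cell genes go from −2.66 to −5.19.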

How the data were processed

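RNA-seq was performed on ribosomal RNA-depleted, stranded paired-end libraries of total RNA. The authors trimmed reads with cutadapt 1.14, aligned them to GRCm38.p5 (mm10) with STAR 2.5.3a and deposited RSEM 1.3 expected counts per gene, for 53465 genes, as named in the submitters' processing notes. These estimated counts (5.76% not whole) were rounded, and 53360 gene IDs were matched to GENCODE M21 for symbols and positions. Genes were filtered by count (minimum 10, total 15), scaled with TMM and tested with edgeR 4.0.16 (R 4.3.3) by glmQLFit and glmQLFTest with mouse as a block, and p-values were adjusted by Benjamini-Hochberg over all genes tested. Genes were called at an FDR of 0.1, the threshold of the study.

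CX and CB libraries were paired by the mouse named in their titles, since they came from the same animal. Deviations from the region means correlated at 0.0443 to 0.242 within mice and at −0.202 to 0.183 (median −0.0145) between mice. With 5 pairs, a single gene could not go below a permutation p of 0.0625, so tests rest on the fit across genes. The largest genes were the 15 in each direction with the largest fitted fold among called genes without overlap and with at least 10 CPM in the higher region, and the genes of the age comparison were the 5 with the largest change in each direction. The members and lists were chosen with earlier results of these data known, and gene lists hold textbook markers and families. Some members are counted in their lists but not reported here by name.

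RPKM used the length of all exons of a gene in GENCODE M21, with overlapping bases counted once. Promoter windows came from RefSeq (GRCm38.p6). Mice 22 and 23 were left out because their genotype differs between sources. On simulated counts for 17521 genes with 200 changed, the WT comparison recovered 176 (88%) with 14 false calls (7.37%). In the data most genes differed, by up to far larger folds. These rates therefore do not measure recovery or false calls in the WT comparison itself. Alternatives were no mouse block, upper-quartile scaling, DESeq2 1.42.0, limma-voom (limma 3.58.1), a likelihood ratio test, no filter, mouse 23 put back and leaving out each mouse, and, chosen after seeing the data, leaving out mice 26 and 31. Sex is not given in the labels used here. Intervals cover counting error only.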

Additional observations from a re-analysis of the deposited data

Results flagged for a closer look

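A sample far from the others in its region was looked for in 84 groups of 5 libraries, and 8 passed Dixon's test, where chance gives about 1 in 20. The CB library of mouse 17 gave 5 of them. Its mean log2 CPM was 6.59 for CaM kinases against 6.24 to 6.34 in the other CB libraries. It was 5.99 for cerebellins and partners against 5.42 to 5.57, and 3.02 for immediate early genes against 2.33 to 2.41. Some lists that did not pass were also highest there, such as calcium channels (6.868 against 6.164 to 6.39) and synaptic vesicle genes (7.033 against 6.565 to 6.721). Purkinje cell genes (8.715 against 8.624 to 8.809) and forebrain interneuron genes (−1.596 against −1.709 to −1.498) were not. In the same library mitochondrial genes took 7.86% of counts against 4.51% to 4.9%, and mt-Rnr1 took 1.24% against 0.197% to 0.315%. Oligodendrocyte genes were low in the CB of mouse 15 (mean log2 CPM 6.17 against 6.89 to 7.18) and in the CX of mouse 26 (6.80 against 7.07 to 7.15). Calmodulin-binding IQ proteins were high in the CX of mouse 15 (7.04 against 6.81 to 6.87).

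The CX to CB difference differed between P35 and P7 for 12567 genes by the interaction test, and the 10 with the largest change were these. Toward CX, Prdm13 changed by 10.43 and Hist1h2ah by 10.29 on the log2 scale. Both had 0 counts in P35 CB, so these values depend on the prior count. They were near absent from P35 CX too (0.0061 and 0.127 CPM), and read 14.2 and 18.3 CPM in P7 CB. The change therefore reflects their fall in CB rather than a level in P35 CX. Hist1h2ah belongs to a cluster of near-identical histone genes, among which counts may be split. Nhlh1 changed by 10.12, Dtl, a replication licensing gene, by 8.69 (40.9 CPM in P7 CB and 0.266 in P35 CB, 6.00 and 16.2 in CX) and Egr2 by 8.54 (1.69 and 0.0376 in CB, 2.67 and 26.3 in CX). Toward CB, Crtam changed by −8.46 (0.972 CPM in P7 CB and 106 in P35 CB), Dao by −6.46, Cbln3 by −6.26 and Barhl2 by −6.16, the last with 0 counts in P35 CX and hence dependent on the prior count. Trim67, a neuronal ubiquitin ligase, changed by −5.95, at 148 CPM in CX and 48.4 in CB at P7 and 2.02 and 48.7 at P35.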

How the results depend on the processing

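Without the replicate block, 12833 genes were called instead of 13141 with the pairing by mouse, and 4750 instead of 4745 past 2-fold. Other settings gave 11187 (without mice 26 and 31) to 14529 genes (no filter), and 12214 to 13235 when 1 mouse was left out, with 10956 to 13124 of the calls kept and 0 turned. In Cul3+/- mice the count was 12882 to 14127, and that of the age comparison 11974 to 12523. The genotype test gave 0 genes without the block or by upper-quartile scaling, 88 by DESeq2, and 0 to 1 without 1 mouse (1 without Cul3+/- mouse 14). Of 428 listed or largest genes, 21 lost the call in at least 1 setting and 31 gained it, 21 of them without mouse 17. The log2FC of Ermn (0.01) lay between −0.20 and 0.11 without 1 mouse and turned to CB without mouse 15 (adjusted p = 0.0663), Kl to 0.51 and Sostdc1 to 3.14 without mice 26 and 31, with choroid plexus genes high in those libraries and the cause not tested. The age change of Prdm13 was 9.08 with an adjusted p of 1 without mouse 11, and the cause was not tested. List medians that moved by more than the spread among mice were those of forebrain interneurons (7.01 by DESeq2, 6.49 by limma-voom, 6.63 to 7.35 without 1 mouse), striatum (1.58 with mouse 23 put back, 1.139 to 1.584 without 1 mouse), phosphoinositide genes (0.30) and monoamine and peptide receptors (3.62) without mice 26 and 31, the latter also 3.67 without mouse 15 or 26, and cyclases (0.72 without mouse 17). The choroid plexus median (−2.19), whose spread among mice was wide, was −3.35 without the block, −1.25 by DESeq2, −1.27 by the likelihood ratio test and −0.14 without mice 26 and 31. Medians near 0 moved by over 1.5 times or turned, over all settings between −0.12 and 0.26 for oligodendrocytes, −0.07 and 0.02 for sodium channels, −0.30 and −0.14 for astrocytes, −0.18 and −0.02 for endothelium, −0.25 and −0.11 for thalamus, 0.12 and 0.35 for calcium channels and 0.11 and 0.30 for phosphoinositide genes. Depth limits genes with few counts in a region, whose folds are bounds or intervals.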
